A study of Mus musculus with 6 samples.

Results

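The 42 genes described here encode proteins of mitosis and chromosome segregation. They were picked by name, with earlier results of these data known but with no threshold on their values, from the 21950 gene symbols listed for both genotypes, and all 42 were found in both. Ileum, the end of the small intestine, was taken from C57BL/6 mice aged 24 weeks. Wild type was represented by 3 mice and TLR4ΔIEC by 3, the latter being animals in which Toll-like receptor 4, the receptor for bacterial lipopolysaccharide, is conditionally knocked out in the intestinal epithelium. The promoter that drives the deletion is not given in the sources used here. Each genotype was deposited as 1 column of average read coverage shared by its 3 mice, so the values below are those of 2 pools, with no spread between mice, no test and no replicate check. The series' design text describes the libraries of each genotype as pooled for sequencing by genotype, so genotype and sequencing pool cannot be told apart.

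Cells of the ileum divide in the crypts, where stem cells and their transit-amplifying daughters replace the villus lining, and also among lymphocytes of the lamina propria and lymphoid follicles. In a dividing cell, cyclin A and cyclin B activate Cdk1, which starts mitosis. Condensin then compacts the chromosomes, kinetochores attach them to the spindle, and the spindle checkpoint holds the anaphase-promoting complex until all are attached. Transcripts of most of these proteins accumulate in G2 and mitosis. Their promoters are known for CCAAT boxes, bound by NF-Y, and for the cell cycle genes homology region (CHR), with the letters TTTGAA or TTTAAA, bound by the DREAM and MuvB complexes. In whole tissue, more dividing cells and more RNA per dividing cell cannot be told apart.

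The promoters are shown first because these letters are what most of the 42 genes share apart from their function. RefSeq promoter windows (GRCm38.p6, 250 bases before to 50 after each annotated start) were matched for 36 of the 42 genes, and the letters were searched on both strands. TTTGAA was found in 28 of the 36 genes (77.8%), against 20.2% of all 27025 genes with a window and 14.1% of the 6488 such genes that reached a mean of 5 units in these data (units are defined with the levels further on). CCAAT was found in 28 of the 36 (77.8%), against 41.1% of all genes, and TTTAAA in 9 (25.0%), against 14.9%. Both CCAAT and TTTGAA stood in 25 of the 36 genes (69.4%), against 7.97% of all genes. The letters were not particular to the 42. Of 107 other mitosis genes, described further on, 82 had a window. TTTGAA was found in 36 of these 82 (43.9%), and both CCAAT and TTTGAA in 26 (31.7%). A match is a description of letters, and no binding was measured. RefSeq starts, used for the promoters, can differ from the GENCODE gene bounds given further on. The stretches below end at the base before the annotated start, are printed 5′ to 3′ on the strand of the gene, and carry CCAAT (or ATTGG, the same letters on the other strand), TTTGAA and TTTAAA in capitals. They are those of Cdca3 and Prc1, with the highest ratios of the 42, of Cdk1 and both B cyclins, of Mki67, the most highly covered gene, and of Spc25, the gene below 0.
Cdca3 (chr6:124830056-124830175, plus strand): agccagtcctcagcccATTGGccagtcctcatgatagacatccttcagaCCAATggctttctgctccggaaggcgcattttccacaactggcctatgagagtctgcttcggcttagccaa
Prc1 (chr7:80294356-80294475, plus strand): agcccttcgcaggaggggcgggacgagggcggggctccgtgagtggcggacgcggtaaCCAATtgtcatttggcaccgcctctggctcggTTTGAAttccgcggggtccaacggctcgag
Cdk1 (chr10:69352913-69353032, minus strand): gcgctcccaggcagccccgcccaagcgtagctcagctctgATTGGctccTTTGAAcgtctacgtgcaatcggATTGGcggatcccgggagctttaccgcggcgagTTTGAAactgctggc
Ccnb1 (chr13:100786487-100786606, minus strand): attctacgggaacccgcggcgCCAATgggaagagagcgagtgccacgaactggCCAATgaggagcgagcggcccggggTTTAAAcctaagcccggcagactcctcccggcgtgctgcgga
Ccnb2 (chr9:70421555-70421674, minus strand): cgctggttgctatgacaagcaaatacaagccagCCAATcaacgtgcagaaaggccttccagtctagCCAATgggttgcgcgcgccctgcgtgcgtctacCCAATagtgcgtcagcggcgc
Mki67 (chr7:135716380-135716579, minus strand): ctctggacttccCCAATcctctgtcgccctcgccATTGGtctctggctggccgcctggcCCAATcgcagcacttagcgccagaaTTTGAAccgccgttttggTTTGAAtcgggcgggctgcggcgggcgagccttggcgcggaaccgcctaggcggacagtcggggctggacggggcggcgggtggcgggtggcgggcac
Spc25 (chr2:69206214-69206333, minus strand): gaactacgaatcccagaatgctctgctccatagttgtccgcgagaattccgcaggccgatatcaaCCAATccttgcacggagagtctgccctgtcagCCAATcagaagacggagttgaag

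In Prc1, CCAAT was followed by TTTGAA at a distance of 32 bases, counted from first letter to first letter, and in Cdk1 the distance was 33 bases. Ccnb1 carried TTTAAA instead, and Ccnb2, Cdca3 and Spc25 carried TTTGAA 4, 30 and 24 bases after the start, outside the printed stretch. A CCAAT from 20 to 40 bases ahead of a TTTGAA was found in 14 of the 36 genes (38.9%), against 1.01% of all genes, a window of distances chosen after the letters were seen. In the other mitosis genes this arrangement was found in 10 of 82 (12.2%). Of 38 TTTGAA matches in the windows of the 36 genes, 71.1% began within 60 bases of the start, against 28.2% of all such matches. Matches were counted in each window, so sites in the 2 overlapping windows of Ect2 and of Prc1 count in both. The median log2 ratio of TLR4ΔIEC to wild type, defined with the levels further on, was 0.54 for the 28 genes with TTTGAA and 0.47 for the 8 without. Spc25, the gene below 0, held 2 CCAAT boxes and a TTTGAA, while Mad2l1, Ncaph, Nuf2 and Nusap1 held none of the letters in their windows. The 6 genes without a window were Smc4, Kif20a, Incenp, Tpx2, Ccna2 and Aurkb.

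**Figure D1:**
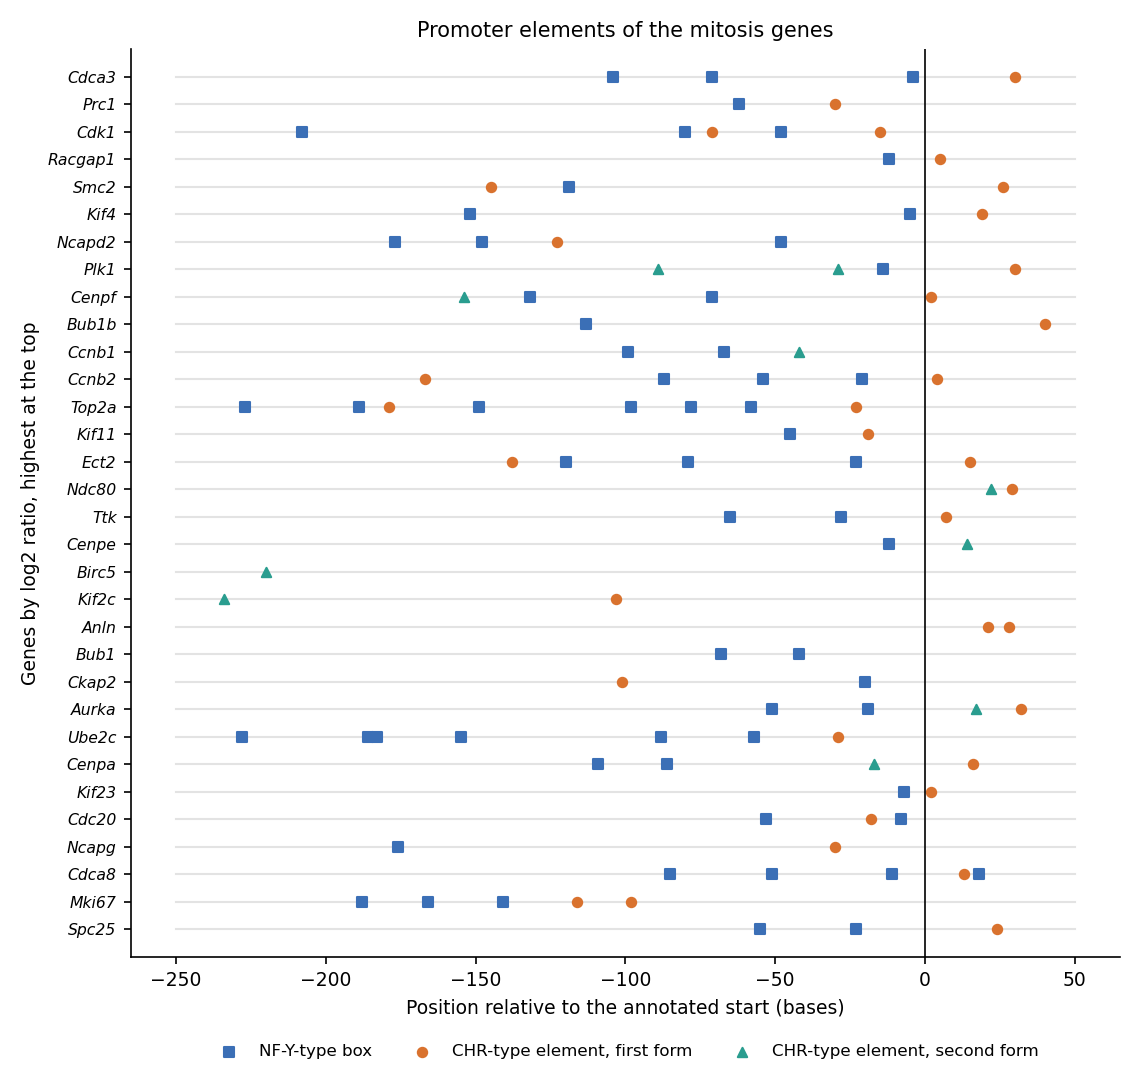
Positions of the first base of each match, relative to the annotated start (x axis, bases), in the RefSeq promoter windows of the 32 mitosis genes with at least 1 match, ordered by log2 ratio (y axis). Squares are CCAAT (NF-Y-type) boxes, circles TTTGAA and triangles TTTAAA, on either strand; most circles lie within 60 bases of the start, and they appear both at the top and at the bottom of the order.

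All but 1 of the 42 mitosis genes were higher in the TLR4ΔIEC pool than in the wild type pool, and none reached 2-fold once 1 unit was added to each value. For comparison between the pools, coverage was scaled by the median ratio over all entries to units in which both columns have a mean total of 1000000, and log2 ratios were taken after adding 1 unit, so that ratios of weakly covered genes come out smaller than their unit folds. The log2 ratio lay above 0 for 41 of 42 genes, against 52.7% of the 8888 genes whose mean reached 5 units and 55.6% of the 10541 genes within the level range of the 42. Their median log2 ratio was 0.48, against 0.03 and 0.05 for these backgrounds. The summed level of the 42 genes was 376 units in the wild type pool and, 1.46-fold higher, 550.0 units in the TLR4ΔIEC pool.

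The size of the differences was moderate. A log2 ratio of at least 0.5 was found for 20 of the 42 genes, against 11.1% of genes in their level range. At least 2-fold higher were 0 of the 42, against 1.29% of the 8888 genes (1.48% in the level range), and 0 were at least 2-fold lower, against 2.79% (2.52%). Over the 8888 genes, 115 passed 2-fold upward and 248 downward. These counts were 155 and 188 after scaling to totals from which the 50 highest genes had been left out, which moved the median of all genes from 0.03 to 0.12. Without the added unit, Cdca3 and Prc1 were both 2.04-fold higher, and the median fold of the 42 genes was 1.59. Average coverage of the 42 genes ran from 0.810 to 31.0 in the wild type pool and from 1.48 to 35.9 in the TLR4ΔIEC pool, and 30 of them had a mean of 5 units or more. Of these 30, 5 stood under 5 units in wild type and passed through the TLR4ΔIEC value. The read length is not given, so no counting error can be attached to a value. Across the 42 genes, Spearman's rho between level and log2 ratio was 0.13, and the order of levels was much the same in both pools (rho = 0.97); these are descriptions across genes that share the same 2 pools.

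**Figure D2:**
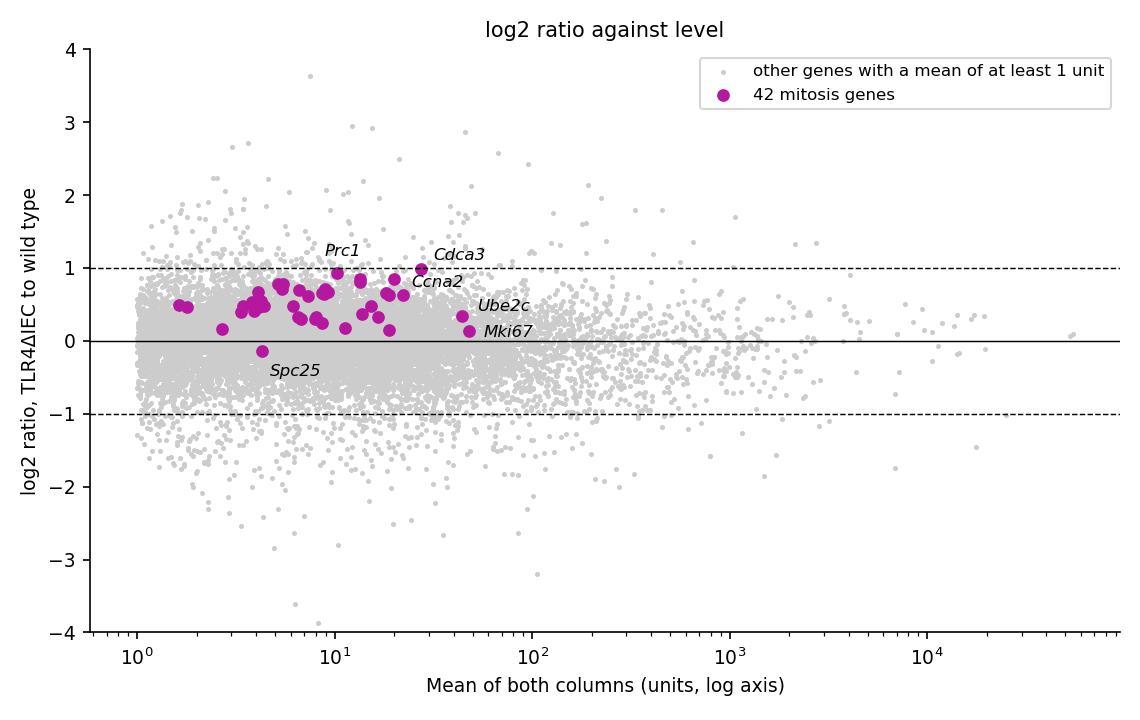
The log2 ratio of TLR4ΔIEC to wild type (y axis) against the mean of both columns in units (x axis, log scale) for the 42 mitosis genes (purple) and the other genes with a mean of at least 1 unit (grey); dashed lines mark 2-fold. The purple points lie between -0.14 and 0.99, and 41 of them are above 0.

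The cyclins and Cdk1, which together drive entry into mitosis, had a median of 0.75, and all 4 were higher in TLR4ΔIEC. Ccna2 (cyclin A2, chromosome 3, 36564865 to 36572150, GRCm38), which acts from S phase into early mitosis, was covered 9.59 times on average in wild type and 18.7 times in TLR4ΔIEC, or 14.0 and 26.1 units (log2 ratio 0.85). Cdk1 (chromosome 10, 69335146 to 69352938), the mitotic kinase itself, had 9.30 and 17.6 units and the same log2 ratio of 0.85. The B cyclins, its partners in mitosis, stood at 13.9 and 22.5 units for Ccnb1 (0.65) and at 17.3 and 27.3 units for Ccnb2 (0.63). The kinase and the 3 cyclins thus stood 1.58-fold to 1.89-fold apart between the pools. Of the exon bases of Ccna2, 12.5% are shared with Exosc9 on the opposite strand; whether reads were assigned by strand is not given.

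The mitotic kinases and the chromosomal passenger complex, in which Aurora B works with Incenp, survivin (Birc5) and borealin (Cdca8), were all higher in TLR4ΔIEC, with a median log2 ratio of 0.48. Tpx2, which activates Aurora A on the spindle, had the highest ratio of the group, at 3.78 and 7.23 units (0.78). Plk1, the Polo kinase of mitotic entry and exit, had 4.78 and 8.35 units (0.70), and Aurkb 6.95 and 11.6 units (0.67). Aurka, the kinase of spindle poles, differed less, at 11.9 and 15.6 units (0.36). Within the passenger complex the ratios ran from the 0.67 of Aurkb to the 0.15 of Cdca8. Birc5, which also inhibits cell death, was at 12.6 and 17.9 units (0.48), and the scaffold Incenp at 4.99914 and 7.32 units (0.47). Cdca8 was covered 12.1 and 14.2 times on average, or 17.7 and 19.8 units (0.15), a 1.12-fold difference.

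Centromere and kinetochore genes held the 1 gene that was lower in TLR4ΔIEC. Spc25 (chromosome 2, 69193895 to 69206194), a subunit of the Ndc80 complex that grips microtubules, was covered 3.10 times on average in wild type and 2.88 times in TLR4ΔIEC, or 4.54 and 4.02 units (log2 ratio -0.14). Behind these averages were 5300 and 4917 sequenced bases on a transcript length recovered as 1709 bases. Its partners in the same complex were higher, Ndc80 at 2.95 and 4.71 units (0.53) and Nuf2 at 3.23 and 4.59 units (0.40). Spc24, the fourth subunit and not one of the 42, was lower as well, at 20.04 and 12.2 units (-0.67), and was named after its value was seen. By sign alone, the complex was thus split between the Ndc80 and Nuf2 pair and the Spc24 and Spc25 pair. Spc25 was only 1.13-fold lower, and its log2 ratio was -0.06 with totals that leave out the 50 highest genes. The kinetochore motor Cenpe stood at 2.70 and 4.18 units (0.48), the large kinetochore protein Cenpf at 2.93 and 5.22 units (0.66), and Cenpa, the histone H3 variant of centromeres, at 14.6 and 18.6 units (0.33). Of these 6 genes only Cenpa reached a mean of 5 units, so the split rests on weakly covered genes, apart from Spc24 with a mean of 16.1 units.

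The 7 genes of the spindle checkpoint and of regulators and partners of the anaphase-promoting complex, with no core subunit among them, were higher in TLR4ΔIEC, with a median of 0.49. The highest log2 ratio of all 42 genes, 0.99, was that of Cdca3 (chromosome 6, 124829547 to 124833701), known as trigger of mitotic entry 1. It was covered 12.2 times on average in wild type and 26.2 times in TLR4ΔIEC, or 17.9 and 36.5 units, from 18189 and 38926 sequenced bases on a length recovered as 1488 bases. No exon of Cdca3 overlaps another gene in GENCODE vM21. The checkpoint kinase-like protein Bub1b (BubR1) stood at 6.50 and 10.8 units (0.65) and Mad2l1, the checkpoint protein that binds Cdc20, at 6.67 and 11.02 units (0.65). Bub1 and Ttk (Mps1), the kinases that start checkpoint signalling, had the lowest coverage of the 42. Bub1 stood at 1.35 and 2.23 units (0.46), and Ttk at 1.19 and 2.06 units (0.49). Cdc20, the activator that the checkpoint restrains, differed less, at 7.81 and 9.44 units (0.25). Ube2c, which hands ubiquitin to the complex, was the second best covered gene of the 42, with a coverage of 26.6 and 35.6, or 38.9 and 49.7 units (0.35). Of its exon bases, 22.8% are shared with Tnnc2 on the opposite strand.

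Chromosome structure genes had a median of 0.30, and all 7 lay above 0. Mki67 (chromosome 7, 135689784 to 135716361) encodes Ki-67, the widely used marker of cycling cells that coats mitotic chromosomes. It was the best covered gene of the 42 and among those that differed least, covered 31.0 times on average in wild type and 35.9 times in TLR4ΔIEC, or 45.4 and 50.2 units (log2 ratio 0.14). The averages come from 312541 and 361871 sequenced bases on 10075 bases of transcript. Mki67 made up 12.1% of the summed level of the 42 genes in wild type and 9.12% in TLR4ΔIEC. Top2a, the topoisomerase that untangles sister chromatids and is likewise used as a marker of dividing cells, stood at 14.6 and 23.2 units (0.63), a larger difference than that of Mki67. The subunits of condensin I varied: Smc2 was at 3.52 and 6.75 units (0.78) and Ncapd2 at 6.57 and 11.4 units (0.71). Less apart were Ncaph at 5.94 and 7.54 units (0.30), Smc4 at 10.5 and 12.0 units (0.17) and Ncapg at 2.47 and 2.88 units (0.16). The ATPase pair Smc2 and Smc4, which are built into condensin together, thus had ratios of 1.92-fold and 1.14-fold. Scarna10, a small RNA gene, shares 3.78% of the exon bases of Ncapd2, and Gm28967, annotated as sense intronic, shares 3.75%. Gm23451, a small RNA gene on the same strand, shares 1.35% of the exon bases of Top2a. Ncapg shares 13.4% of its exon bases with Lcorl on the opposite strand.

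Kinesin motors were higher in TLR4ΔIEC in all 5 cases, with a median of 0.47. Kif4, a motor of chromosome arms and the central spindle, stood at 3.84 and 6.92 units (0.71), and Kif11 (Eg5), which pushes the spindle poles apart, at 5.53 and 9.04 units (0.62). Kif2c, which takes microtubules down at centromeres, had 3.50 and 5.25 units (0.47). The 2 kinesins of cytokinesis had the lowest ratios of the group: Kif20a was at 5.69 and 7.38 units (0.33) and Kif23 (MKLP1) at 7.03 and 9.04 units (0.32). Kif20a shares 29.3% of its exon bases with Cdc23 on the opposite strand, and Kif4 shares 15.1% with Pdzd11.

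Genes of the central spindle and of cytokinesis were all higher in TLR4ΔIEC, with a median of 0.51. Prc1 (chromosome 7, 80294450 to 80316259), which bundles the microtubules of the central spindle, had the second highest log2 ratio of the 42, 0.93, covered 4.59 times on average in wild type and 9.82 times in TLR4ΔIEC, or 6.72 and 13.7 units. Racgap1, which forms the centralspindlin complex with Kif23, stood at 9.45 and 17.3 units (0.81), so the partners in that complex differed by 1.83-fold and 1.29-fold. Ect2, the exchange factor that centralspindlin recruits to activate RhoA, had 3.25 and 5.21 units (0.55), and Anln, the scaffold of the contractile ring, 3.31 and 4.97 units (0.47). The microtubule-associated Ckap2 had 2.77 and 3.97 units (0.40), and Nusap1 7.07 and 8.89 units (0.29). Prc1 shares 11.1% of its exon bases with Rccd1 on the opposite strand. In all, 12 of the 42 genes share exon bases with another gene, 10 of them on the opposite strand. Over the 30 with no exon overlap, the median log2 ratio was 0.48, as for the whole set.

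**Figure D3:**
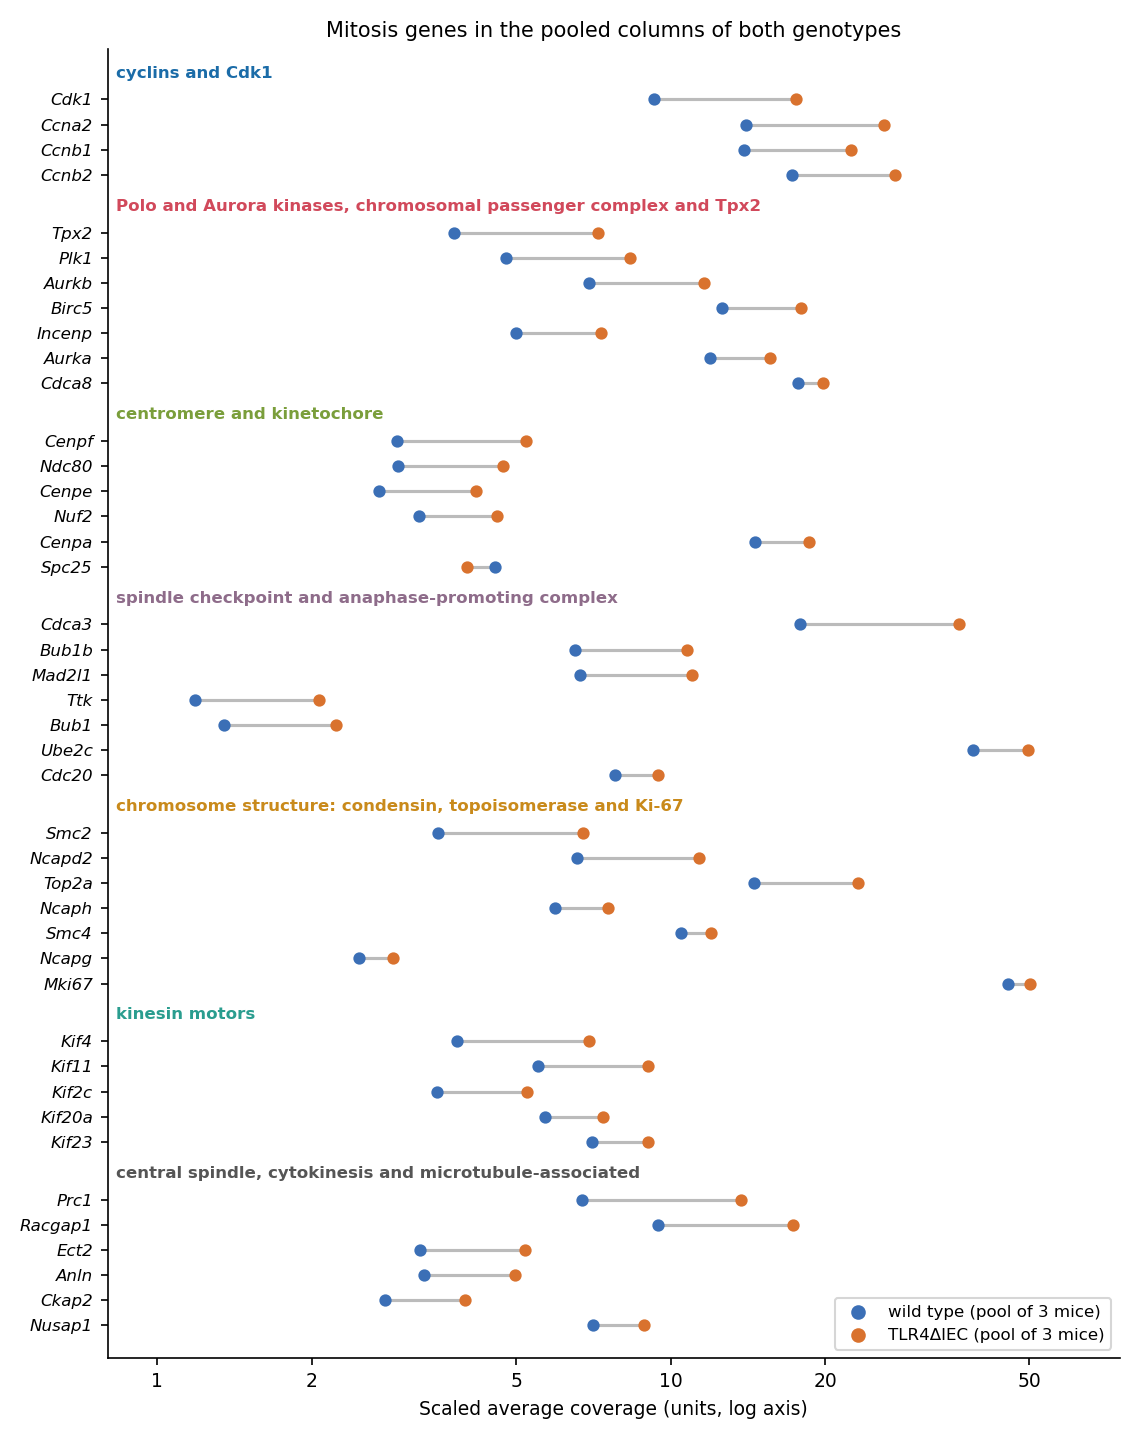
Level of each of the 42 mitosis genes in units (x axis, log scale) in the wild type pool (blue) and the TLR4ΔIEC pool (orange), grouped by role, with a grey line joining the 2 values of a gene. The orange point lies to the right for all genes except Spc25, and the gap is narrow for Mki67, Cdca8 and Smc4.

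Further genes of mitosis, 107 in 7 lists, lay above 0 in 87 cases with a median of 0.26 and a summed level 1.10-fold higher in TLR4ΔIEC. Of the 107, 3 passed 2-fold upward and 0 downward. Of the 56 with a mean of 5 units or more, 1 passed upward and 0 downward, against 1.29% and 2.79% of all such genes. Entry regulators such as the kinases Wee1 and Nek2 and the transcription factor Foxm1 stood nearest to the 42 genes, with 14 of 16 above 0 and a median of 0.54. Among them, Cks2, a small partner of Cdk1, was at 28.1 and 31.3 units (0.15). Other spindle, motor and cytokinesis genes had 20 of 23 above 0 and a median of 0.35; stathmin (Stmn1), which destabilises microtubules, was at 143 and 159 units (0.15), and Tacc3, a spindle protein at least 2-fold higher (1.09), was named after its value was seen.

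Cohesin genes, whose ring holds sister chromatids together, had 10 of 11 above 0 and a median of 0.37, with the ring subunit Rad21 at 28.5 and 37.1 units (0.37) and the release factor Wapal at 22.5 and 32.2 units (0.50). Other kinetochore and centromere genes were less uniform, with 23 of 31 above 0 and a median of 0.17, and Pmf1 at 23.0 and 23.2 units (0.01). The core subunits of the anaphase-promoting complex, which non-dividing cells also use, had 9 of 13 above 0, a median of 0.04 and a summed level of 346 units in wild type and 319 in TLR4ΔIEC. Examples were Anapc13 (-0.41), Anapc5 (0.20), Anapc2 (-0.19) and Anapc16 (0.02). Regulators of the checkpoint and of that complex had 9 of 10 above 0 and a median of 0.18; the activator Fzr1 (Cdh1), which keeps the complex active in G1 and in resting cells, was lower (-0.56), Bub3 was at 0.18 and Ube2s at 0.01. The 3 subunits of condensin II that condensin I lacks had 2 above 0, with Ncaph2 at -0.07.

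DNA replication genes, which act in S phase just ahead of mitosis, had 40 of 48 above 0, a median of 0.51 and sums of 423 and 597 units, 1.41-fold apart. Their log2 ratios ran from -0.25 to 1.34, and 8 of 48 passed 2-fold upward. Of the 37 with a mean of 5 units or more, 7 did, against 1.29% of all such genes. Some of these 7 stood under 5 units in wild type. The helicase subunit Mcm6 stood at 20.3 and 43.1 units (1.05), thymidine kinase Tk1 at 19.1 and 27.7 units (0.51), the sliding clamp Pcna at 52.1 and 60.7 units (0.22) and the clamp loader subunit Rfc2 at 25.5 and 24.6 units (-0.05). In their promoters, TTTGAA was found in 7 of 37 genes with a window (18.9%), near the share of all genes, and CCAAT in 22 (59.5%). Of regulators of G1, 14 of 23 lay above 0, with a median of 0.19. Ccnd1 (cyclin D1) was at 26.01 and 65.5 units (1.30) and Ccnd2 at 41.0 and 78.1 units (0.91). The D cyclin Ccnd3 went the other way, at 16.6 and 11.3 units (-0.52), and was named after its value was seen. Cdk4 was at 79.5 and 108 units (0.44), and the inhibitor Cdkn1a (p21) at 79.2 and 74.2 units (-0.09).

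Markers of the cell types that whole ileum holds also differed between the pools. Crypt stem cell genes had 9 of 12 above 0, a median of 0.38 and a summed level of 242 and 372 units, of which Olfm4 alone made up 133 and 224. Log2 ratios were 0.78 for Prom1, 0.75 for Olfm4, 0.58 for Cdca7 and 0.54 for Smoc2, while Lgr5, the defining marker, was at 3.26 and 3.33 units (0.02). Villus enterocyte genes, whose cells do not divide, lay above 0 in 3 of 16 cases, with a median of -0.47. Their summed level was 18939 and 8564 units, of which Apoa1 alone made up 10533 and 3154. Fabp1 (-3.20), Apoa1 (-1.74), Alpi (-1.36) and Apoa4 (-1.18) were the furthest below 0 of those with a mean of 20 units or more. The list was not uniform: Vil1 was at 588 and 584 units (-0.01) and Krt20 at 728 and 734 units (0.01). Epithelial genes of all stages had 3 of 9 above 0 and a sum of 5558 and 5035 units, with Elf3 at -0.74, Cldn7 at -0.65, Krt19 at 0.43 and Cdx1 at -0.41. Paneth cell genes summed to 105081 and 107554 units, with a median of 0.13, 8 of 10 above 0, Mptx2 at 1.70, Ang4 at 0.35, Mmp7 at 0.31 and Defa22 at -0.27. The part of shifts between cell types in the values of the mitosis genes was not tested.

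Some lymphoid and myeloid cells can divide in the ileum too, but whether the cells of each list below divide was not measured. Markers of T cells and intraepithelial lymphocytes lay above 0 in 12 of the 13 genes found, of 14 listed, and summed to 122 and 303 units, with granzyme A (Gzma) at 1.75 and Cd3g at 0.85. Gzma alone made up 57.6 and 196 of the summed units. Plasma cell genes were all above 0, 8 of 8, and summed to 421 and 1032 units, with Igj at 1.79, Mzb1 at 1.16, Xbp1 at 0.50 and Sdc1 at 0.14. Of these sums, Igj alone made up 202 and 702 units. Macrophage genes had 7 of 8 above 0 and sums of 906 and 1683 units, with log2 ratios of 1.01 for Lyz2, 0.95 for Csf1r, 0.72 for C1qb and 0.39 for C1qc. Lyz2 alone made up 690 and 1389 of the summed units. Genes of B cells and germinal centres, a site of rapid division, were lower in 11 of 12 cases and summed to 76.6 and 65.0 units; Cd79a was at -0.06 and Cd79b at 0.05. Their part in the values of the mitosis genes was not tested.

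**Figure D4:**
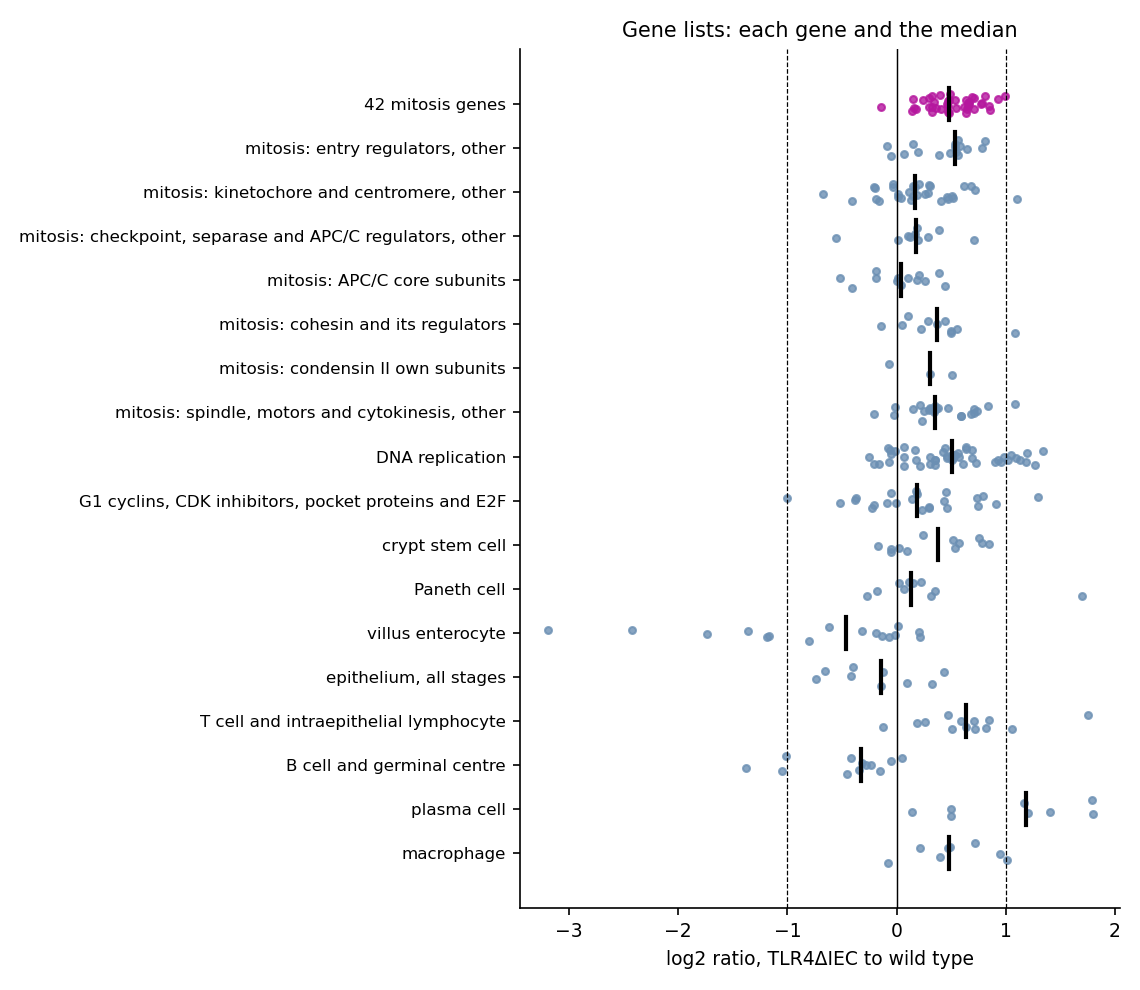
The log2 ratio of TLR4ΔIEC to wild type (x axis) of every gene found in both columns, by list (y axis), with the median as a black bar and 2-fold as dashed lines; small vertical shifts only separate the points. The 42 mitosis genes lie between -0.14 and 0.99, all but Spc25 above 0. DNA replication genes spread further to the right, and most villus enterocyte genes lie below 0, some of them close to it.

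Across the series, the wild type column listed 22724 entries with a median coverage of 1.57 and the TLR4ΔIEC column 22687 entries with a median of 1.70. Tlr4 itself was weakly covered, at 2.90 and 2.24 units (-0.27). Whole ileum includes cells that the epithelial deletion spares, and which exons it removes is not known here, so this value is a weak check of the labels. The ileal genes Slc10a2, the bile acid carrier, and Fgf15 were present in both pools, at 92.9 and 93.6 units and at 28.7 and 18.1 units.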

How the data were processed

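Ileal RNA of 3 wild type and 3 TLR4ΔIEC mice was depleted of ribosomal RNA and made into Ion Torrent libraries with strand-specific reverse transcription, 1 barcode per mouse, per the labels' protocols. Per the submitters' processing notes, TopHat2 2.0.10, Bowtie2 2.1.0 and the build mm10 were used; their roles are not stated. The authors deposited 1 column per genotype of average coverage, a signal, for each RefSeq entry, per the file headers. The averaging, the read length and any use of strand were not stated. For 23 of the 42 genes both averages could be written as whole bases over 1 common length of at most 15000 bases, which may be a multiple or a divisor of the true one; these are the bases of reads quoted.

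The 22001 entries listed in both columns gave 21950 symbols, and of repeated symbols the highest entry was kept. Scaling used the median of ratios, with a factor of 1.05 between columns, and set the mean total at 1000000 units. At 5 units the average coverage is 3.41 (wild type) and 3.58 (TLR4ΔIEC). With pooled columns no test across mice was possible, and replicates could not be left out. The 42 genes and the other lists were chosen with earlier results of these data known. Every one of the 42 is named; of each other list, up to 4 genes with the largest absolute log2 ratio among those with a mean of at least 20 units. Named outside this rule were Spc24, Tacc3, Ccnd3, Vil1 and Krt20, after their values were seen, and Lgr5 as a defining marker. Wee1, Nek2 and Foxm1 were named as examples of function, and Tlr4, Slc10a2 and Fgf15 as checks of the labels. Coordinates and exon overlaps are from GENCODE vM21 (GRCm38, the assembly of mm10), promoters from RefSeq (GRCm38.p6). The steps were tested on simulated columns. Python 3.11.15, numpy 2.4.6 and pandas 2.3.3 were used.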

Additional observations from a re-analysis of the deposited data

How the results depend on the processing

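The alternatives were 3 other scalings, pseudocounts of 0.1 and 5, filters at 1, 5 and 20 units, the mean over entries of a symbol, genes with the same recovered length, and, chosen after seeing the data, genes with no exon overlap. Between 95.7% and 100% of the 42 genes, or of those left, lay above 0, and their median ran from 0.30 (pseudocount 5) to 0.66 (pseudocount 0.1). None of the 42 changed sign under the 3 other scalings, the only settings that could change a sign. Both scalings to totals raised the ratio of every one of the 42, so under them only Spc25 could have changed sign. Spc25 stood at -0.09 with scaling to the total and at -0.06 without the 50 highest genes. Only quantile normalization could have turned a gene that lay above 0. A pseudocount keeps the sign, the filters and subsets only drop genes, and each of the 42 had 1 entry. The planned setting with no filter is how the 42 genes are reported. The number at least 2-fold higher, 0 as reported, was 1 with scaling to the total, 2 with totals that leave out the 50 highest genes, 1 with quantile normalization and 2 with a pseudocount of 0.1, namely Cdca3 in each and Prc1 in both cases of 2. The median of the condensin II subunits turned to -0.0705 with filters at 5 and 20 units, which left 1 gene. The share of the 2-fold calls over all genes that were higher was 31.7% as reported, 41.4% (145 and 205) with scaling to the total and 45.2% (155 and 188) without the 50 highest genes. Coverage limits the 12 genes under 5 units most. No paired analysis was possible because the columns are pools of 3 mice and the genotypes share no replicate number.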

Other observations

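The promoter letters common among the mitosis genes also occur in other genes. Among non-members that reached 5 units on average and have a promoter window, the 357 with both CCAAT and TTTGAA had a median log2 ratio of 0.03, with 54.9% above 0, and the 6107 without both had a median of 0.02, with 52.2% above 0. The 51 such genes with a CCAAT 20 to 40 bases ahead of a TTTGAA had a median of 0.15, with 58.8% above 0, against 0.02 and 52.3% for the other 6413. Only the 42 mitosis genes were left out, so other mitosis and DNA replication genes remain among these non-members. Of those with a window, whatever their level, 26 other mitosis genes and 4 DNA replication genes had both CCAAT and TTTGAA. The arrangement with CCAAT ahead was found in 10 and 1 of them. Their part in these medians was not tested. These splits were chosen after the promoters were seen, and their genes share the same 2 pools.

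Partners in a complex had unequal ratios in several cases, chosen after their values were seen. Spc24 was lower in TLR4ΔIEC (-0.67) and Spc25 only slightly so (-0.14), while Ndc80 and Nuf2 were higher (0.53 and 0.40). Racgap1 (0.81) and Kif23 (0.32), Smc2 (0.78) and Smc4 (0.17), and Aurkb (0.67) and Cdca8 (0.15) differed within their complexes as well. Mki67 and Top2a, both read as markers of dividing cells, gave 1.10-fold and 1.59-fold. Without replicates, none of these contrasts could be set against a spread between mice.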
